A study of Homo sapiens with 12 samples.

Results

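The genes for 3 TGF-beta ligands (TGFB1, TGFB2, TGFB3), 3 TGF-beta receptors (TGFBR1, TGFBR2, TGFBR3), the activin subunit INHBA, the bone morphogenetic proteins BMP2 and BMP4, and the inhibitor SMAD7 were followed in total RNA from 3 ovarian cell lines. These 10 genes were chosen by name from the 61533 genes in the files. Each line was measured in 4 libraries, which gave 12 libraries of rRNA-depleted, paired-end RNA-seq. T1074 is an ovarian surface epithelial line immortalized with SV40, grown in Prigrow I medium. PEO-4 comes from a high-grade serous carcinoma of the ovary and was grown in RPMI medium. SKOV-3 was grown in McCoy's medium and is labelled a serous cystadenocarcinoma, whereas the study calls it a clear cell carcinoma. All lines were labelled wild type and received fetal bovine serum, and the labels give no treatment. Each line is a single line with its own medium, so the line and its medium cannot be told apart. The labels do not say that the libraries of a line came from separate cultures, and the p-values therefore reflect the spread between libraries alone, which may be technical.

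TGF-beta family ligands are secreted dimers that bring together a type II and a type I receptor kinase at the cell surface. TGF-beta and activin receptors mainly phosphorylate SMAD2 and SMAD3, BMP receptors mainly SMAD1, SMAD5 and SMAD9, and both groups then join SMAD4 to change transcription in the nucleus. SMAD7 is itself induced by the pathway and shuts it down by binding the type I receptor. Normal ovarian surface epithelial cells are known to slow their growth in response to TGF-beta, and the same ligands can promote mesenchymal features in carcinoma cells.

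Levels are given as CPM, which are counts scaled by the size and TMM factor of each library, or as TPM. The deposited TPM is scaled by transcript length and library, without a TMM factor. It allows different genes of a library to be compared, and its differences between lines can depart from those in CPM. Differences between lines were tested on counts with edgeR's quasi-likelihood test over 19898 genes, and a gene was called when its Benjamini-Hochberg adjusted p was under 0.05. Depth, as summed expected counts, ran from 19780836 to 38583368 across the T1074 libraries. SKOV-3 was deepest, with 47340136 to 55739060, and PEO-4 had 38690954 to 47148161. T1074 replicate 1 was the shallowest library and had the lowest protein-coding share of T1074, 65.4%, and without it the numbers of family genes called were the same in all 3 comparisons. Of 12 epithelial markers, EPCAM, CDH1 and CLDN3 were below 1 CPM in T1074, and MUC1 was below 1 CPM in PEO-4. The summed CPM of the epithelial markers was 720.3 to 1951 in T1074, 1188 to 2048 in SKOV-3 and 4157 to 5884 in PEO-4. That of 12 fibroblast and mesenchymal markers was 967.5 to 2728 in T1074, 1158 to 2822 in SKOV-3 and 78.9 to 116 in PEO-4. These sums hide differences between the markers. VIM was the largest in SKOV-3, at 1693 ± 593 CPM, and THY1 in PEO-4, at 81.7 ± 17.6 CPM (SD, n = 4). In SKOV-3 against T1074, 8 of the 12 were called lower and 4 higher, with a median log2 fold change of -3.47. Of all tested genes, 34.5% were lower and 33.3% higher. Endothelial and leukocyte markers, 6 of each, summed to 19.5 to 46.1 and 8.94 to 24.4 CPM in T1074 and to at most 4.71 and 6.88 CPM in the libraries of the other lines. In such bulk libraries, fewer cells of a type and less RNA per cell cannot be told apart.

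The 3 TGF-beta ligand genes changed places between the lines. TGFB2 supplied most of the TGF-beta ligand transcript in T1074, TGFB1 most of it in PEO-4 and SKOV-3, and TGFB3 made up 31.4% in PEO-4. Their start regions are therefore shown side by side. The lines below give the 100 bases before the RefSeq start of each gene on GRCh38.p14, 5′ to 3′ on the gene's own strand, each at the 5′ end of the transcript with the highest TPM (TGFB1-201, TGFB2-202 and TGFB3-201). Capitals mark the motif TATAAA. The windows lie at chr19:41353923-41354022 on the minus strand for TGFB1, chr1:218345236-218345335 on the plus strand for TGFB2 and chr14:75981996-75982095 on the minus strand for TGFB3.
TGFB1: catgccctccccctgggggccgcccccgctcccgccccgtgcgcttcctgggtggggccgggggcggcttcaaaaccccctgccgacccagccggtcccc
TGFB2: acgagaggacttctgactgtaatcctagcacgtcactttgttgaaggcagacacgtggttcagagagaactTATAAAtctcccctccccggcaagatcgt
TGFB3: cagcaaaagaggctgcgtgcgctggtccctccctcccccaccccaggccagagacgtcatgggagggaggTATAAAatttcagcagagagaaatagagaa

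The start region of TGFB1 was the richest in G and C of these 3, with 77.3% in the 300 bases from 250 before to 50 after the start, against 51.7% for TGFB2 and 50.3% for TGFB3 and a median of 58.7% over 35116 promoters. It held 28 CpG, against 14 for TGFB2, 11 for TGFB3 and a median of 14. TATAAA, searched on both strands, was found in TGFB2 and TGFB3 and in 11.5% of all promoters, and INHBA was the other gene of the 9 with an entry that held it. The palindromic SMAD sequence GTCTAGAC, in 0.202% of promoters, was in none of the 9, and GGCGCC, in 19.2%, was in the window of BMP4. That window lay at a RefSeq start 1775 bases from the start of BMP4-201, the BMP4 transcript with the highest TPM. The AP-1 sequence TGACTCA, in 4.95%, was in the window of TGFBR2. These are matches of letters and not shown to be sites.

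Against T1074, PEO-4 had less RNA of 8 of the 10 genes and more of TGFB3, and of the 8 the call of SMAD7 was not kept by several alternatives. SKOV-3 had less TGFB2, INHBA and BMP4, and more BMP2 and SMAD7, while its 3 TGF-beta receptor genes were not called. The background was high in each comparison. In PEO-4 against T1074, 36.3% of all tested genes were called higher and 37.8% lower, beside 1 and 8 of the 10 genes. For SKOV-3 against T1074 the shares were 33.3% and 34.5%, beside 2 and 3 of the 10. For PEO-4 against SKOV-3 they were 38.5% and 36.7%, beside 2 (TGFB3 and BMP4) and 8 of the 10. The median absolute log2 fold change over all tested genes was 1.02, 0.84 and 1.06 in these comparisons, so that a change of about 2-fold was common, and both comparisons with T1074 share its libraries. In the same order, the libraries of the lines compared did not overlap for 13258, 11990 and 15052 of the 19898 tested genes. Lack of overlap was therefore common too.

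**Figure D1:**
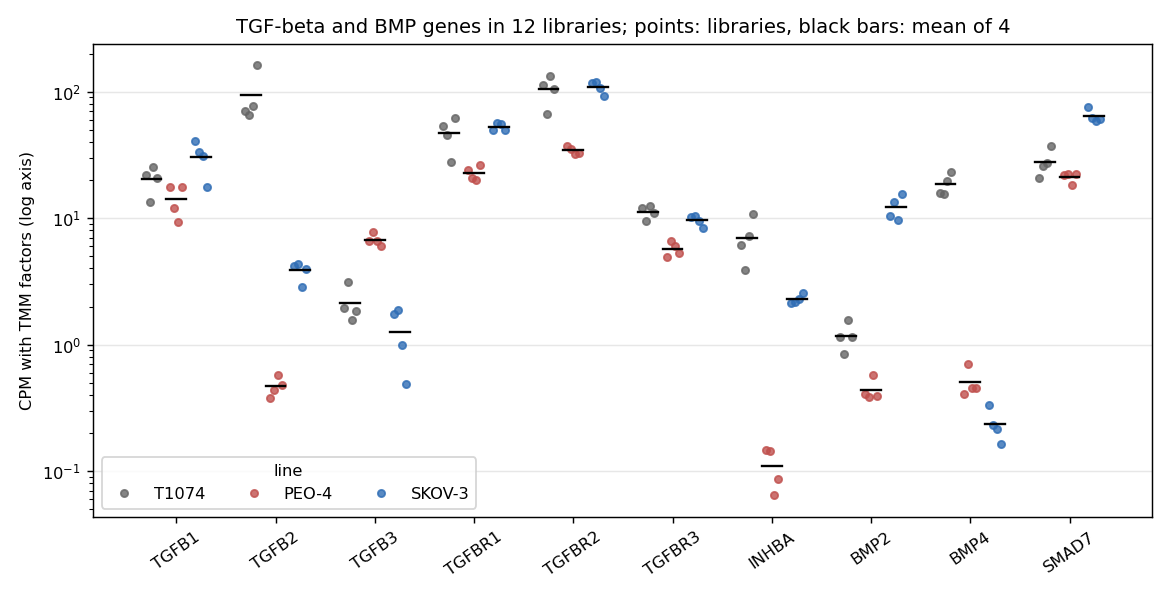
CPM with TMM factors, on a log axis, of the 10 genes in the 4 libraries each of T1074 (grey), PEO-4 (red) and SKOV-3 (blue), where points are libraries and black bars are means. TGFB2 lies at 65.4 to 161.1 in T1074 and at 0.381 to 0.580 in PEO-4, and BMP2 is the gene whose SKOV-3 points, 9.72 to 15.6, lie furthest above the other lines.

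TGFB1 (chr19:41301587-41353922, minus strand) encodes the most widely made TGF-beta. In T1074 replicates 1 to 4 it was at 21.9, 13.5, 25.3 and 20.7 CPM. In PEO-4 it was at 17.8, 11.99, 9.37 and 17.7 CPM, and in SKOV-3 at 40.8, 33.2, 31.3 and 17.5 CPM. The libraries of all 3 lines overlapped, and the lowest SKOV-3 library fell among those of PEO-4. PEO-4 against SKOV-3 was called, at -1.11 ± 0.27 on the log2 scale (SE, edgeR adjusted p = 0.00161). Neither comparison with T1074 was called, at -0.52 ± 0.27 for PEO-4 (adjusted p = 0.0927) and 0.60 ± 0.26 for SKOV-3 (adjusted p = 0.0587). Both results turned on the processing and on single libraries. PEO-4 against T1074 was called with scaling by library size only (-0.67, adjusted p = 0.0200) and without T1074 replicate 2 (-0.68, adjusted p = 0.0335). SKOV-3 against T1074 was called with RLE size factors (0.64, adjusted p = 0.0467) and with DESeq2. It was also called without T1074 replicate 3 (0.73, adjusted p = 0.0347), without SKOV-3 replicate 4 (0.80, adjusted p = 0.00927) and without PEO-4 replicate 1, 3 or 4 (0.65 each, adjusted p = 0.0360 to 0.0462). TGFB1 overlaps HNRNPUL1, CCDC97 and TMEM91 on the opposite strand. The study names a directional library kit, but the strand setting of the counting is not given in the sources used here. The noncoding gene ENSG00000286177 overlaps TGFB1 on the same strand and had 20.4 to 81.5 expected counts per library.

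TGFB2 (chr1:218345336-218444619, plus strand), a ligand that needs the co-receptor TGFBR3 for strong binding to TGFBR2, had the largest fold difference of the 10 genes in PEO-4 against T1074. It was at 70.6, 65.4, 77.4 and 161.1 CPM in T1074. In PEO-4 it was at 0.381, 0.434, 0.580 and 0.476 CPM, and in SKOV-3 at 4.21, 4.36, 2.87 and 3.996 CPM. Every T1074 library was above every SKOV-3 library, and every SKOV-3 library was above every PEO-4 library. The fold difference was 197 for T1074 over PEO-4 (log2 fold change -7.62 ± 0.35, edgeR adjusted p = 1.35e-10) and 24.2 for T1074 over SKOV-3 (-4.60 ± 0.28, adjusted p = 4.21e-09). SKOV-3 exceeded PEO-4 8.13-fold (adjusted p = 1.03e-06). With counts rebuilt from length-scaled TPM, the log2 fold change of PEO-4 was -6.69 against T1074 and -2.18 against SKOV-3, still called. The antisense gene TGFB2-AS1 had 5.44 to 17.8 expected counts per library in T1074, against 1407 to 6478 for TGFB2.

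TGFB3 (chr14:75958097-75983011, minus strand), the third TGF-beta, ran the other way. It was at 6.56, 7.74, 6.60 and 6.03 CPM in PEO-4. It was at 1.96, 3.14, 1.57 and 1.84 CPM in T1074 and at 1.74, 1.86, 0.985 and 0.492 CPM in SKOV-3. In CPM, PEO-4 lay above both other lines in each library, while T1074 and SKOV-3 overlapped. In TPM, T1074 replicate 2 was at 0.86, within the PEO-4 range of 0.52 to 1.16. PEO-4 exceeded T1074 3.15-fold (log2 fold change 1.66 ± 0.33, edgeR adjusted p = 3.73e-04) and SKOV-3 5.28-fold (2.40 ± 0.34, adjusted p = 1.47e-05). SKOV-3 against T1074 was at -0.75 ± 0.34 (adjusted p = 0.0646) and was called with the replicate block, at -0.81 (adjusted p = 0.0251). It was also called without T1074 replicate 3 (-0.86, adjusted p = 0.0433), without SKOV-3 replicate 1 (-0.92, adjusted p = 0.0416) and without SKOV-3 replicate 2 (-0.98, adjusted p = 0.0281). TGFB3 lies within the span of IFT43 on the opposite strand, which had 129 to 866 expected counts per library.

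In TPM, which has no TMM factor, the 3 ligand genes summed to 14.0 ± 4.48 in T1074, 4.40 ± 1.44 in SKOV-3 and 2.37 ± 0.362 in PEO-4 (SD, n = 4 each). TGFB2 took 61.0%, 69.2%, 61.3% and 80.2% of that sum in the T1074 libraries, against 5.66% to 9.83% in SKOV-3 and 1.17% to 3.33% in PEO-4. TGFB1 took 18.2% to 37.0% in T1074, 88.4% to 91.9% in SKOV-3 and 53.7% to 74.5% in PEO-4. The shares of TGFB1 and TGFB2 therefore separated all 3 lines with no overlap.

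TGFB3 took 22.5%, 45.1%, 34.6% and 23.3% in the PEO-4 libraries, against 1.62% to 6.32% in those of T1074 and 1.71% to 4.24% in SKOV-3. The mean share of TGFB1 was 29.0% ± 9.22 in T1074, 89.8% ± 1.69 in SKOV-3 and 66.3% ± 9.68 in PEO-4. That of TGFB2 was 67.9% ± 9.03, 7.27% ± 1.85 and 2.28% ± 1.06 in the same order. Of 9 differences in share between lines, 8 gave p = 0.0286 in a two-sided exact permutation test, the smallest that 4 against 4 libraries allow, and an adjusted p of 0.0321. The 3 shares of a library sum to the whole and the pairs of lines reuse libraries, so the 9 tests are not independent. A share can rise because another falls, and TGFB1 itself was not called against T1074 in either carcinoma line. The exception among the 9 was the share of TGFB3 between SKOV-3 and T1074, at 2.92% and 3.10% (exact permutation p = 0.886, the same after adjustment). TPM carries no depth, and the TPM values were deposited to 2 decimals.

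**Figure D2:**
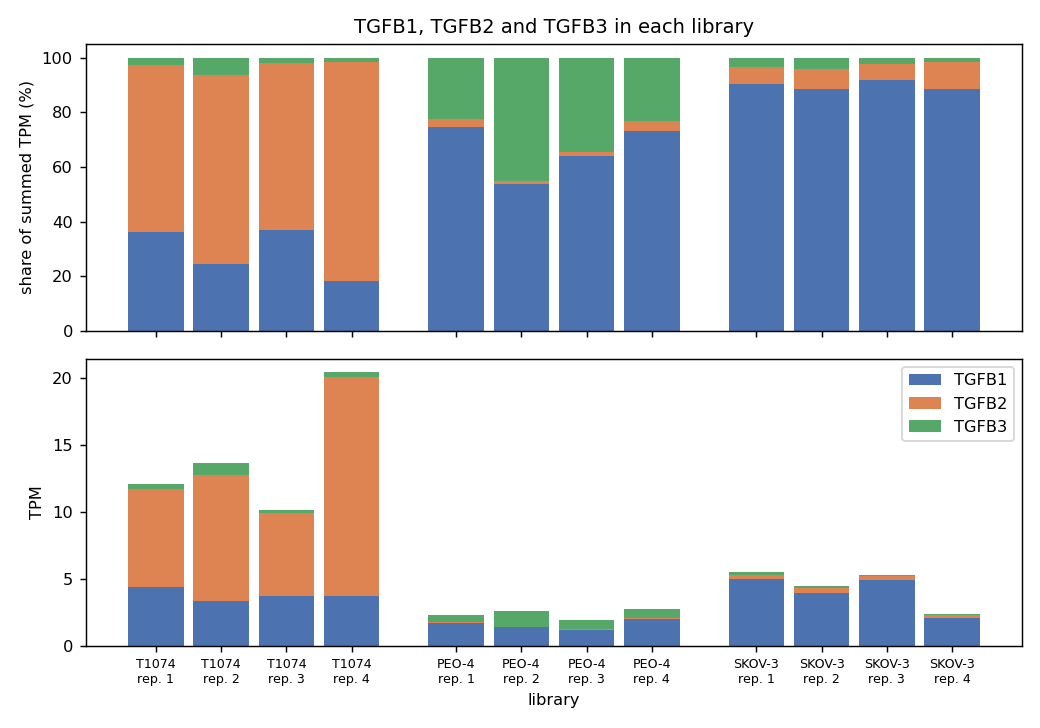
Upper panel: share, in percent, of TGFB1, TGFB2 and TGFB3 in their summed TPM in each of the 12 libraries. Lower panel: the TPM itself, stacked. TGFB2 takes 61.0% to 80.2% in T1074, and the stacks of PEO-4 and SKOV-3 are shorter and mostly TGFB1.

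INHBA (chr7:41667168-41705834, minus strand) encodes the inhibin beta A chain, whose dimer is activin A. It was at 6.17, 3.87, 7.25 and 10.7 CPM in T1074, and at 2.13, 2.17, 2.31 and 2.54 CPM in SKOV-3. In PEO-4 it was at 0.146, 0.145, 0.0645 and 0.0865 CPM, which were 5, 6, 3 and 4 counts per library. The 3 lines did not overlap. SKOV-3 was 3.06-fold lower than T1074 (log2 fold change -1.61 ± 0.26, edgeR adjusted p = 7.94e-05), and PEO-4 was at -5.99 ± 0.37 against T1074 (adjusted p = 2.87e-09) and -4.37 ± 0.37 against SKOV-3 (adjusted p = 8.20e-08). The antisense INHBA-AS1 had at most 7 expected counts in a library.

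BMP2 and BMP4 encode closely related bone morphogenetic proteins and moved in different lines. BMP2 (chr20:6767686-6780246, plus strand) was at 10.45, 13.4, 9.72 and 15.6 CPM in SKOV-3. It was at 1.15, 0.848, 1.57 and 1.14 CPM in T1074 and at 0.410, 0.386, 0.580 and 0.389 CPM in PEO-4. The lines did not overlap, with SKOV-3 highest and PEO-4 lowest. SKOV-3 exceeded T1074 10.4-fold (log2 fold change 3.38 ± 0.23, edgeR adjusted p = 1.14e-08) and PEO-4 27.6-fold (adjusted p = 5.71e-10). PEO-4 was at -1.40 ± 0.26 against T1074 (adjusted p = 1.91e-04).

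BMP4 (chr14:53949736-53958761, minus strand) was at 15.9, 15.6, 19.6 and 23.3 CPM in T1074. In PEO-4 it was at 0.410, 0.700, 0.451 and 0.454 CPM, and in SKOV-3 at 0.331, 0.231, 0.214 and 0.164 CPM, where the libraries held 8 to 17 counts. T1074 stood apart from both carcinoma lines. It exceeded PEO-4 36.7-fold (log2 fold change -5.20 ± 0.23, edgeR adjusted p = 1.22e-10) and SKOV-3 77.9-fold (-6.28 ± 0.25, adjusted p = 5.55e-11, or -5.36 with length-scaled TPM). PEO-4 was above SKOV-3 by 1.09 ± 0.28 on the log2 scale (adjusted p = 0.00265), a difference that was not called with length-scaled TPM (0.71, adjusted p = 0.0954). The uncharacterized antisense gene ENSG00000287156 overlaps BMP4 and held 17.3 to 28.5 expected counts in T1074 and at most 2 in the other libraries, so that T1074 stood apart for it as for BMP4.

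The 3 receptor genes were lower in PEO-4 than in either other line, and none was called in SKOV-3 against T1074, by edgeR or DESeq2, at unadjusted edgeR p-values of 0.133 to 0.684. TGFBR2 (chr3:30606601-30694142, plus strand), the type II kinase that binds the ligand first, was at 113.0, 66.5, 132.7 and 105.4 CPM in T1074. Its PEO-4 libraries held 37.0, 35.2, 32.4 and 32.9 CPM, and in SKOV-3 it was at 118.1, 119.9, 107.8 and 92.2 CPM. PEO-4 lay below all libraries of both other lines, which overlapped each other. PEO-4 was 3.04-fold below T1074 (log2 fold change -1.60 ± 0.17, edgeR adjusted p = 8.96e-07) and 3.18-fold below SKOV-3 (-1.67 ± 0.17, adjusted p = 5.85e-07). SKOV-3 against T1074 was at 0.07 ± 0.17 (adjusted p = 0.729), with a sign that was negative with scaling by library size only (-0.11) and without T1074 replicate 2 (-0.10).

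TGFBR1 (chr9:99104038-99154192, plus strand), the type I kinase that phosphorylates SMAD2 and SMAD3, was at 53.8, 45.6, 27.6 and 61.7 CPM in T1074. In PEO-4 it was at 24.0, 20.8, 20.1 and 26.5 CPM, and in SKOV-3 at 49.7, 56.1, 55.1 and 49.9 CPM. PEO-4 was again below every other library, although T1074 replicate 3 came close to it. The log2 fold change of PEO-4 was -1.04 ± 0.19 against T1074 (edgeR adjusted p = 1.84e-04) and -1.21 ± 0.19 against SKOV-3 (adjusted p = 4.87e-05), and that of SKOV-3 against T1074 was 0.16 ± 0.19 (adjusted p = 0.463).

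TGFBR3 (chr1:91680343-91906335, minus strand), also called betaglycan, presents ligand and above all TGFB2 to the kinases. It was at 11.99, 9.51, 12.4 and 10.99 CPM in T1074 and at 10.3, 10.47, 9.42 and 8.40 CPM in SKOV-3. PEO-4 held 4.89, 6.59, 6.06 and 5.34 CPM, below all libraries of the other lines. The log2 fold change of PEO-4 was -0.97 ± 0.14 against T1074 (edgeR adjusted p = 1.85e-05) and -0.75 ± 0.14 against SKOV-3 (adjusted p = 1.82e-04). For SKOV-3 against T1074 it was -0.22 ± 0.14 (adjusted p = 0.172), and with scaling by library size only it was -0.41 (adjusted p = 0.0312).

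SMAD7 (chr18:48919853-48950965, minus strand), the inhibitor of the pathway, was highest in SKOV-3. It was at 75.3, 61.5, 58.9 and 60.6 CPM in SKOV-3. It was at 20.7, 25.6, 27.3 and 37.1 CPM in T1074 and at 21.9, 22.2, 18.2 and 22.1 CPM in PEO-4. SKOV-3 stood above both other lines, which overlapped each other. SKOV-3 exceeded T1074 2.31-fold (log2 fold change 1.21 ± 0.16, edgeR adjusted p = 7.93e-06) and PEO-4 3.04-fold (adjusted p = 3.70e-07). PEO-4 was called below T1074 at -0.39 ± 0.15 (adjusted p = 0.0322), but the call was lost with DESeq2 (-0.31, adjusted p = 0.0774), in a fit of the 8 libraries of the pair (-0.28, adjusted p = 0.146), with protein-coding genes only (-0.28, adjusted p = 0.112), without T1074 replicate 4 (-0.22, adjusted p = 0.139) and without any single PEO-4 library (-0.21 to -0.30).

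**Figure D3:**
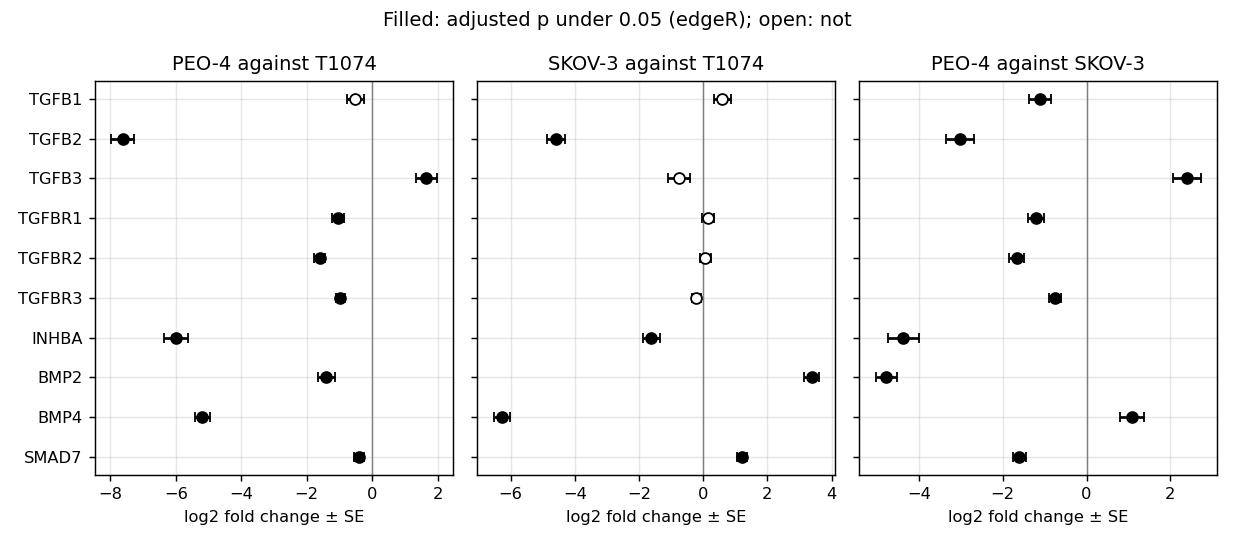
Log2 fold change ± SE of the 10 genes in the 3 comparisons, from edgeR, with filled points for an adjusted p under 0.05 and open points for the rest. In SKOV-3 against T1074 the receptor genes lie between -0.22 and 0.16, while in PEO-4 they lie between -1.60 and -0.97.

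Compared per length, TGFBR2 had the highest mean TPM of the 10 genes in each line, 10.7 ± 1.05 in T1074, 7.95 ± 1.23 in SKOV-3 and 2.14 ± 0.172 in PEO-4 (SD, n = 4). TPM has no TMM factor, and the mean CPM of TGFBR2 was 104.4, 109.5 and 34.4 in the same order. TGFBR2 overlapped the second gene of the order in each line. In T1074 the second was TGFB2 at 9.83 ± 4.56 TPM, followed by BMP4 at 5.59 ± 0.999 TPM. In PEO-4 and SKOV-3 the second was SMAD7, at 2.11 ± 0.243 and 7.40 ± 0.848 TPM, followed by TGFB1 at 1.57 ± 0.348 and 3.96 ± 1.34 TPM. In T1074 the first 6 genes of the order (TGFBR2, TGFB2, BMP4, SMAD7, TGFBR1 and TGFB1) each overlapped the next, and a gap followed before TGFBR3 at 1.10 ± 0.0538 TPM. The last in the order was BMP2 in T1074 (0.158 ± 0.00957 TPM), INHBA in PEO-4 (0.005 ± 0.00577 TPM) and BMP4 in SKOV-3 (0.0950 ± 0.0480 TPM).

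The shares of single transcripts within a gene were compared between lines, in a design that could hardly pass the test. TGFB1-201 carried 90.3% to 93.4% of the TGFB1 TPM on average in each line, and the coding transcript TGFBR2-201 carried 71.4% ± 4.57 of TGFBR2 in T1074, 74.6% ± 0.597 in SKOV-3 and 68.4% ± 4.45 in PEO-4. TGFBR1 was spread over TGFBR1-201, TGFBR1-202, TGFBR1-208 and TGFBR1-209, with mean shares of 15.1% to 37.3%. SMAD7-202, a transcript with a retained intron, took 16.8% ± 7.77 of SMAD7 in T1074, 7.17% ± 4.29 in SKOV-3 and 4.95% ± 3.36 in PEO-4. T1074 did not overlap the other lines in this share, and both differences gave an exact permutation p of 0.0286 and an adjusted p of 0.243. Of 34 tests over transcripts and pairs of lines, 2 had an unadjusted permutation p under 0.05 and none passed after adjustment. At least 20 of the 34 would have had to reach 0.0286, the smallest p of 4 against 4 libraries, for any to pass, so the lack of a pass says little about differences in share. Several of these transcripts share most of their exons, and RSEM divides their reads by estimate.

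Other genes had profiles close to those of the 10 over the 12 libraries. Likeness was the root mean square difference of log2 CPM, each gene centred on its own mean, among 11184 protein-coding genes outside the family. TGFBR1 was closest to SMARCA1, a chromatin remodeler, at 0.11, against a median of 0.74 over the candidates. TGFBR2 was closest to MAP7D1 (0.18, median 0.88) and TGFBR3 to CLPP, a mitochondrial protease (0.13, median 0.65). SMAD7 was closest to SLC41A2 (0.17, median 0.85) and TGFB1 to ZSWIM6 (0.30, median 0.77). TGFB2 was closest to CALB2, which encodes calretinin (0.57, median 3.03), BMP4 to RHEBL1 (0.49, median 2.7), INHBA to PAPSS2 (0.34, median 2.28), TGFB3 to PRRT3 (0.35, median 1.38) and BMP2 to AMIGO2 (0.39, median 1.99). A gene with a large spread between lines is farther from most genes, so these distances are descriptions with no test.

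Other genes of the pathway were taken from 8 lists, in which PMEPA1, SKIL, THBS1, SMAD6, BAMBI and NOG each stand in more than 1 list. Of 27 other ligand genes, 16 were tested, and 4 were at 0 in all libraries. A gene could pass the filter on 1 line alone. Counts and medians of a list therefore describe its tested genes and not the whole list. In PEO-4 against T1074, 9 were higher and 5 lower, with a median log2 fold change of 0.95 against -0.01 over all tested genes, of which 36.3% were higher and 37.8% lower. BMP7, a BMP of epithelia and kidney, was at 125.2 ± 38.5 CPM in PEO-4, 0.0349 ± 0.0544 in T1074 and 0.131 ± 0.0262 in SKOV-3 (SD, n = 4). PEO-4 thus carried high BMP7 where BMP2 and BMP4 were both below 1 CPM.

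For SKOV-3 against T1074, 9 ligand genes were higher and 4 lower, with a median of 2.11 against -0.03 and beside 33.3% and 34.5% of all tested genes. Several of the 9 were below 1 CPM in T1074, such as GDF1 at 0.450 ± 0.238 and INHBB at 0.126 ± 0.0701 CPM, while GDF15 and INHBE were not. BMP6 was at 11.7 ± 1.80 CPM in SKOV-3 and 0.571 ± 0.471 in T1074 (log2 fold change 4.28 ± 0.39, edgeR adjusted p = 2.42e-07), and INHBE, another activin chain gene, at 48.6 ± 20.5 and 3.88 ± 1.59 (3.62 ± 0.36, adjusted p = 5.36e-07). BMP8B was high in both carcinoma lines, at 11.5 ± 0.842 CPM in PEO-4 and 11.4 ± 1.33 in SKOV-3, against 0.781 ± 0.310 in T1074. AMH, the anti-Müllerian hormone, was at 6.73 ± 3.00 CPM in T1074, 2.06 ± 0.583 in SKOV-3 and 0.592 ± 0.101 in PEO-4.

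Of 13 other receptor and co-receptor genes tested, 7 were higher and 6 lower in PEO-4, and 5 were higher and 5 lower in SKOV-3. Of all tested genes, 36.3% were higher and 37.8% lower in PEO-4, and 33.3% and 34.5% in SKOV-3, so the SKOV-3 counts were near the background. Scaling by library size only left 4 higher in PEO-4. ACVR2B, a type II receptor for activins, was at 56.3 ± 12.7 CPM in PEO-4 and 16.3 ± 1.33 in T1074 (log2 fold change 1.79 ± 0.16, edgeR adjusted p = 1.19e-07). BMPR1B, a type I receptor for BMPs, was at 23.1 ± 2.34 CPM in SKOV-3, 4.23 ± 0.314 in T1074 and 1.69 ± 0.795 in PEO-4. SKOV-3 was above T1074 by 2.45 ± 0.25 on the log2 scale (adjusted p = 7.06e-07) and PEO-4 was at -1.32 ± 0.26 (adjusted p = 3.22e-04). These are the same directions as BMP2, and a link between BMPR1B and BMP2 was not tested.

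The co-receptor gene ENG, which encodes endoglin, was at 0.543 ± 0.146 CPM in SKOV-3 and 5.48 ± 1.28 in T1074 (-3.32 ± 0.24, adjusted p = 1.74e-08). The BMP co-receptor RGMA was at 0.191 ± 0.125 CPM in T1074 and 10.0 ± 2.14 in PEO-4 (adjusted p = 1.95e-09), while RGMB fell in both carcinoma lines, from 56.4 ± 21.6 CPM in T1074 to 24.7 ± 1.81 in PEO-4 and 21.5 ± 2.19 in SKOV-3.

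Among 6 SMAD signal mediators, 1 was higher (SMAD4) and 4 lower in PEO-4 against T1074, with a median of -0.74. The shares over all tested genes were 36.3% higher and 37.8% lower. SMAD3, which carries the TGF-beta signal, fell from 138.6 ± 60.7 CPM in T1074 to 39.7 ± 2.11 in PEO-4 (log2 fold change -1.81 ± 0.26, edgeR adjusted p = 2.12e-05) and 50.4 ± 4.92 in SKOV-3 (-1.46 ± 0.26, adjusted p = 1.70e-04). SMAD2 was at 187.9 ± 12.8, 178.3 ± 13.2 and 238.2 ± 6.33 CPM in T1074, PEO-4 and SKOV-3. SMAD9, a mediator of BMP signals, was at 12.9 ± 7.71 CPM in T1074, 16.6 ± 3.01 in SKOV-3 and 2.58 ± 0.487 in PEO-4, lower in PEO-4 (-2.33 ± 0.35, adjusted p = 3.36e-05).

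SMAD1, also for BMP signals, was below T1074 in PEO-4 (log2 fold change -1.14 ± 0.13, adjusted p = 1.24e-06) and above it in SKOV-3 by 0.56 ± 0.12 on the log2 scale (adjusted p = 8.96e-04). In SKOV-3 against T1074, 3 mediators were higher (SMAD1, SMAD2 and SMAD4) and 1 lower, beside 33.3% and 34.5% of all tested genes. The 3 higher mediators lost their calls with scaling by library size only. That scaling moved the median of all tested genes to -0.17 for PEO-4 and -0.23 for SKOV-3.

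TGF-beta is stored in a latent form that integrins and other proteins open. Of 12 genes for latency and activation, 4 were higher and 6 lower in PEO-4, and 4 were higher and 3 lower in SKOV-3, where 5 were lower without T1074 replicate 3 and 6 with scaling by library size only. The 4 higher genes were near the all-gene shares of 36.3% in PEO-4 and 33.3% in SKOV-3, and the lower genes stood beside shares of 37.8% and 34.5%. ITGB8, the integrin chain that pairs with ITGAV to activate TGF-beta, was at 372.8 ± 20.8 CPM in PEO-4, 71.5 ± 9.53 in SKOV-3 and 26.4 ± 8.23 in T1074. Its log2 fold change against T1074 was 3.82 ± 0.19 in PEO-4 (edgeR adjusted p = 3.38e-10) and 1.44 ± 0.18 in SKOV-3 (adjusted p = 4.61e-06). ITGB6, another partner of ITGAV, was at 0.0372 ± 0.0248 CPM in T1074, 20.7 ± 6.39 in SKOV-3 and 6.62 ± 3.37 in PEO-4, higher in both (adjusted p = 7.16e-09 in SKOV-3 and 5.39e-08 in PEO-4).

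ITGAV itself was at 495.9 ± 29.9 CPM in SKOV-3 and 174.5 ± 47.2 in T1074 (1.51 ± 0.17, adjusted p = 1.85e-06). In PEO-4, by contrast, it was lower, at 129.8 ± 1.60 CPM (-0.43 ± 0.16, adjusted p = 0.0297), a call lost in 7 of 12 fits that each left out 1 library. LTBP1, which anchors latent TGF-beta in the matrix, was at 97.3 ± 20.7 CPM in SKOV-3 and 8.04 ± 4.66 in T1074 (3.59 ± 0.37, adjusted p = 8.64e-07). THBS1, thrombospondin, was at 328.3 ± 163.5 CPM in T1074 and 34.3 ± 3.16 in PEO-4 (-3.26 ± 0.40, adjusted p = 3.77e-06).

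Of 13 tested genes for secreted antagonists, 3 were higher and 9 lower in PEO-4 against T1074, with a median of -2.42, and 5 were higher and 6 lower in SKOV-3, with a median of -0.98. All-gene shares were 36.3% higher and 37.8% lower in PEO-4, and 33.3% and 34.5% in SKOV-3. The 5 higher genes in SKOV-3 were near the background. FST, follistatin, which binds activin, was at 9.09 ± 1.08 CPM in T1074, 0.0305 ± 0.0256 in SKOV-3 and 0.189 ± 0.0667 in PEO-4. It was called lower in both lines (edgeR adjusted p = 2.51e-10 in SKOV-3 and 8.35e-10 in PEO-4), as INHBA was, and a link between FST and INHBA was not tested. GREM1, gremlin, which binds BMP2 and BMP4, was at 5.52 ± 3.03 CPM in T1074 and below 0.1 CPM on average in the carcinoma lines, at 0.0127 ± 0.0150 in PEO-4 and 0.00487 ± 0.00975 in SKOV-3.

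BGN, biglycan, a matrix proteoglycan that binds TGF-beta, was at 253.1 ± 34.9 CPM in PEO-4, 0.119 ± 0.0955 in T1074 and 0.887 ± 0.966 in SKOV-3. NBL1, a secreted BMP antagonist, was at 250.9 ± 22.6 CPM in SKOV-3 and 68.3 ± 16.9 in T1074 (log2 fold change 1.88 ± 0.19, edgeR adjusted p = 8.39e-07).

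Of 13 intracellular and decoy inhibitors beside SMAD7, 4 were higher and 4 lower in PEO-4, and 8 were higher and 2 lower in SKOV-3, with medians of 0.11 and 0.79. Over all tested genes, 36.3% were higher and 37.8% lower in PEO-4, so these PEO-4 counts were near the background. The shares in SKOV-3 were 33.3% and 34.5%. In PEO-4 against SKOV-3, 9 of the 13 were lower, beside 36.7% of all tested genes, with a median of -0.77. PMEPA1, a TGF-beta target that binds SMAD2 and SMAD3, was at 257.1 ± 65.3 CPM in SKOV-3, 9.62 ± 1.83 in T1074 and 17.3 ± 2.54 in PEO-4. Its log2 fold change against T1074 was 4.74 ± 0.22 in SKOV-3 (edgeR adjusted p = 2.21e-10) and 0.85 ± 0.19 in PEO-4 (adjusted p = 0.00113).

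LDLRAD4, a relative of PMEPA1, was at 26.1 ± 3.41 CPM in SKOV-3, 5.00 ± 0.705 in PEO-4 and 0.190 ± 0.167 in T1074, and PPM1A, a SMAD phosphatase, at 179.8 ± 12.5, 94.8 ± 0.772 and 60.9 ± 2.43. The decoy receptor gene BAMBI fell in PEO-4, from 29.6 ± 11.8 CPM in T1074 to 3.49 ± 1.02 (-3.09 ± 0.29, adjusted p = 2.20e-07). FKBP1A, whose product holds type I receptors inactive, fell from 167.5 ± 38.7 to 61.1 ± 2.29 CPM in PEO-4 (-1.46 ± 0.14, adjusted p = 3.12e-07).

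**Figure D4:**
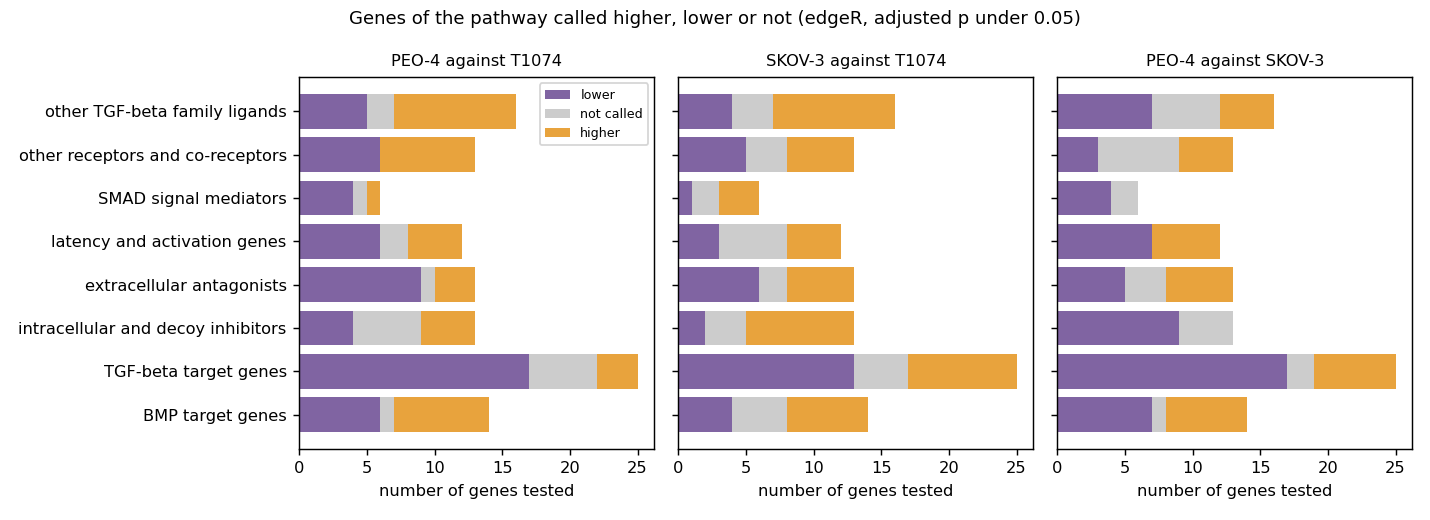
Number of tested genes of 8 pathway lists that were called lower (purple), not called (grey) or called higher (orange) in the 3 comparisons. In PEO-4 against T1074, 17 of 25 TGF-beta target genes are lower, and in SKOV-3 against T1074, 8 of 13 intracellular and decoy inhibitors are higher. Of all tested genes, 37.8% are lower in PEO-4 against T1074 and 33.3% higher in SKOV-3 against T1074.

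Genes that TGF-beta is known to induce were mostly lower in PEO-4 and divided in SKOV-3. Of 25, 3 were higher, 17 lower and 5 not called in PEO-4 against T1074, with a median log2 fold change of -4.96 and beside 36.3% of all tested genes higher and 37.8% lower. In SKOV-3 against T1074, 8 were higher, 13 lower and 4 not called, with a median of -1.62 and beside 33.3% and 34.5% of all tested genes. Of the 25, 10 were lower in both comparisons, which share the T1074 libraries, and 4 (COL1A2, IGFBP3, SNAI2 and ZEB1) were lower in PEO-4 and higher in SKOV-3.

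COL4A1, a basement membrane collagen, was at 120.1 ± 77.0 CPM in T1074, 184.9 ± 16.2 in SKOV-3 and 0.167 ± 0.146 in PEO-4, and COL3A1, a fibrillar collagen, at 393.6 ± 285.6, 1.45 ± 0.988 and 9.12 ± 2.87. The smooth muscle actin gene ACTA2 was at 193.2 ± 227.9 CPM in T1074 and 0.674 ± 0.181 in SKOV-3, and its log2 fold change of -8.16 ± 0.89 lay between -8.51 and -6.96 when each library in turn was left out.

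CDKN2B, a cell cycle inhibitor, was at 40.1 ± 14.0 CPM in T1074 and at 0 in all libraries of PEO-4 and SKOV-3. Against a floor of 3 counts per library, its level in PEO-4 was at least 553.9-fold lower, and that in SKOV-3 at least 663.3-fold lower. The floor covers counting error alone. JUNB, CCN2 and PMEPA1 were the 3 targets that were higher in PEO-4, and they were named after their values were seen.

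COL1A1, COL1A2 and COL3A1 are also in the list of mesenchymal markers, whose summed CPM in PEO-4 was below that of both other lines, and LUM and FAP of that list were at 0 in PEO-4. Of the 22 targets outside the marker list, 3 were higher and 14 lower in PEO-4, and 7 were higher and 11 lower in SKOV-3. All-gene shares were 36.3% and 37.8% in PEO-4, and 33.3% and 34.5% in SKOV-3, so the 7 were near the background. The part of the marker difference in the target result was not tested.

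**Figure D5:**
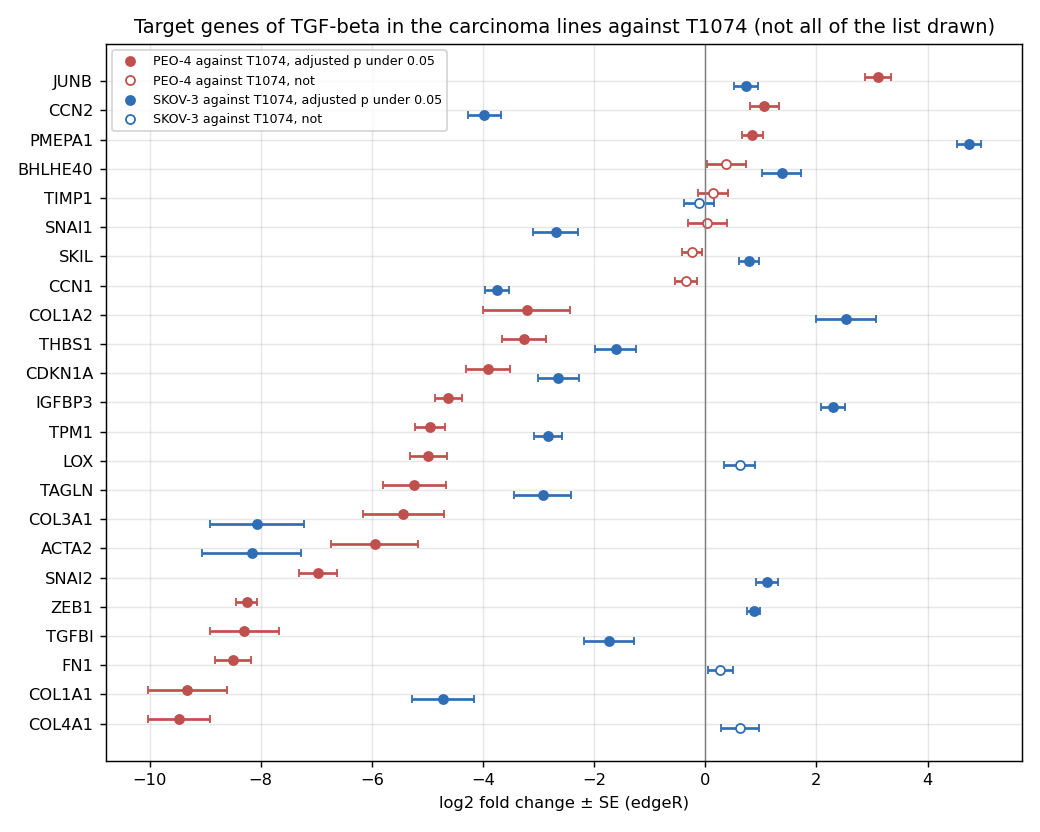
Log2 fold change ± SE of TGF-beta target genes in PEO-4 (red) and SKOV-3 (blue) against T1074, in the order of the PEO-4 values, with filled points for an edgeR adjusted p under 0.05. Not all genes of the list are drawn, and CDKN2B, at 0 in both carcinoma lines, is among those left out. PMEPA1 reaches 4.74 in SKOV-3 and 0.85 in PEO-4, and COL3A1 lies at -5.43 in PEO-4 and -8.07 in SKOV-3.

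BMP target genes had no common direction. Of 14 tested, 7 were higher and 6 lower in PEO-4, and 6 were higher and 4 lower in SKOV-3, with medians of 0.63 and 0.40. The all-gene shares were 36.3% higher and 37.8% lower in PEO-4, and 33.3% and 34.5% in SKOV-3. ATOH8, a helix-loop-helix factor, was at 30.4 ± 7.61 CPM in T1074, 0.280 ± 0.0762 in SKOV-3 and 1.25 ± 0.555 in PEO-4, and GATA2 at 18.0 ± 3.801, 1.44 ± 0.123 and 0.131 ± 0.0413. Both fell in both carcinoma lines, as BMP4 did (edgeR adjusted p = 5.20e-09 and 8.69e-12 in PEO-4, 6.81e-10 and 5.31e-10 in SKOV-3). The homeobox gene MSX2 was at 5.47 ± 1.17 CPM in SKOV-3, 2.71 ± 0.309 in PEO-4 and 0.0717 ± 0.0484 in T1074, and DLX3 at 12.6 ± 0.434 in PEO-4, 0.0721 ± 0.0307 in T1074 and 0.0754 ± 0.0461 in SKOV-3.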

How the data were processed

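Total RNA of T1074, PEO-4 and SKOV-3 was sequenced in 4 libraries per line. The authors used bcl2fastq 2.20.0.422 for demultiplexing, Trimmomatic 0.39 for trimming, STAR 2.7.3a for alignment to hg38 and RSEM 1.3.1 for transcript estimates, according to their methods and processing notes. They deposited an expected count, not normalized, for each of 244939 transcripts, and they deposited TPM, scaled by length and library. The study's own test was DESeq2. The sample labels call the molecule protein, but the values are those of RNA-seq.

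Expected counts were summed by gene and rounded to whole numbers. Symbols and positions came from GENCODE 44 on GRCh38, which held 61369 of the 61533 gene IDs. Genes were filtered with filterByExpr by line, scaled by TMM and fitted in 1 edgeR 4.0.16 quasi-likelihood model of all 12 libraries (R 4.3.3), with Benjamini-Hochberg adjustment over 19898 genes. All adjusted p-values in the text are from this model unless DESeq2 1.42.0 or a permutation test (scipy 1.17.1) is named. Values are mean ± SD over 4 libraries. In each library 32.0% to 39.0% of transcript values were not whole, since RSEM divides shared reads. Libraries of a line differed by more than sampling noise (chi-square per degree of freedom 25.99 to 336.5). Depth per library is given with the results, and low levels such as INHBA in PEO-4 rest on few counts.

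The 10 genes and the pathway and marker lists were chosen with earlier results of these data known. Genes named from a list were up to 3 per comparison with T1074, those with the largest called change, a mean of at least 5 CPM in the higher line and no overlap. Some genes that are counted in the lists are not reported here by name. Likeness used candidates with a mean of at least 5 CPM. Transcripts were those with a mean share of at least 10% in a line where the gene had a mean of at least 0.5 TPM. Promoter sequences were from the RefSeq table on GRCh38.p14, in which 9 of the 10 genes had an entry. The procedure was tested on simulated data.

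Same-numbered libraries did not deviate together (correlations -0.153 to 0.096), so replicate numbers were not used as pairs in the model. Alternatives were other size factors, library size only, DESeq2, the replicate block, other filters and thresholds, fits of 8 libraries, length-scaled TPM, protein-coding genes only, and leaving out each library.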

Additional observations from a re-analysis of the deposited data

Results flagged for a closer look

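Of 39 sets of 4 libraries tested for a library far from the rest of its line (10 genes and the 3 ligand shares in 3 lines), 5 held one by Dixon's criterion at the 95% level, which flags about 5% of sets by chance. TGFB2 was at 161.1 CPM in T1074 replicate 4, above 65.4 to 77.4 CPM in the other T1074 libraries. BMP2 was at 0.580 CPM in PEO-4 replicate 3, above 0.386 to 0.410 CPM in the others. BMP4 was at 0.700 CPM in PEO-4 replicate 2, above 0.410 to 0.454 CPM. SMAD7 was at 18.2 CPM in PEO-4 replicate 3, below 21.9 to 22.2 CPM in the others, and at 75.3 CPM in SKOV-3 replicate 1, above 58.9 to 61.5 CPM.

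BMP2 and SMAD7 moved in opposite directions from T1074 in the carcinoma lines. The difference between the effects, which is the comparison of PEO-4 with SKOV-3, was -4.79 on the log2 scale for BMP2 (edgeR adjusted p = 5.71e-10) and -1.60 for SMAD7 (adjusted p = 3.70e-07). BMP2 was lower in PEO-4 than in T1074 in 4 of 4 libraries and higher in SKOV-3 in 4 of 4. The fall of SMAD7 in PEO-4 was not stable across the alternatives.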

How the results depend on the processing

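No called fold change of the 10 genes changed direction under any alternative run. Of those not called, the receptor genes in SKOV-3 against T1074 changed sign, TGFBR1 with scaling by library size only (-0.03) and without T1074 replicate 3 (-0.02), TGFBR2 with scaling by library size only (-0.11) and without T1074 replicate 2 (-0.10), and TGFBR3 with length-scaled TPM (0.04). Over all tested genes the balance of calls in PEO-4 against T1074 turned from 7225 higher and 7524 lower to 7637 and 7091 with RLE size factors and 7645 and 7122 with DESeq2, and that in SKOV-3 against T1074 from 6624 and 6874 to 6968 and 6600, and to 7017 and 6668. With a log2 fold change of at least 1 in size also required, 4815 genes were lower in PEO-4 against T1074, 3897 higher and 4368 lower in SKOV-3 against T1074, and 4689 lower in PEO-4 against SKOV-3, in place of 7524, 6624, 6874 and 7304. With scaling by library size only, 5 of the 10 genes were lower in SKOV-3 against T1074, in place of 3, with TGFB3 at -0.97 (adjusted p = 0.0236) and TGFBR3 at -0.41 (adjusted p = 0.0312) added. With length-scaled TPM, 1 of the 10 was higher in PEO-4 against SKOV-3, in place of 2. Of 690 alternative fold changes of the 10 genes, 659 kept their side of the threshold, 16 passed it and 15 lost it, and 12 of the losses were those of SMAD7 in PEO-4 against T1074.

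TGFB1 in SKOV-3 against T1074 was called with RLE size factors (0.64, adjusted p = 0.0467), with DESeq2 (0.64, adjusted p = 0.0340) and with at least 1 count in total (0.70, adjusted p = 0.00844). Its log2 fold change ranged from 0.41 to 0.80 over the alternatives (adjusted p 0.00844 to 0.178). The replicate block called TGFB3 in SKOV-3 against T1074 (-0.81, adjusted p = 0.0251) and changed no other call of the 10 genes. With sign-flipped pairs, 4 differences allow no p below 0.125 for the ligand shares. Depth limits INHBA and BMP4 most, with 3 to 6 counts per PEO-4 library and 8 to 17 per SKOV-3 library.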
